A study of Mus musculus with 2 samples.

Results

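The genes described here are 9 lipid and lysosome genes of macrophages: Fabp5, Gpnmb, Lgals3, Trem2, Apoe, Ctsd, Ctsb, Ctsl and Cd63. They were found by gene symbol among the 32285 genes of the count matrices, and each symbol matched 1 gene. They were selected on their UMIs (unique molecular identifiers, 1 per captured RNA) per cell class in both libraries and on their joint detection in macrophages. The tissue was periodontal ligament, which ties tooth roots to the jaw, taken from C57BL/6J males at 8 weeks of age and measured cell by cell with RNA sequencing. In the orthodontic tooth movement (OTM) group the upper left first molar was pulled with a force of 10 g for 6 days. The Control group was the unloaded right side, and the labels do not say whether it came from the same mice. Each group was 5 animals pooled into 1 library, so no spread between animals could be measured and no test between the groups was possible. Every interval below is a 95% interval for counting error only. The UMIs of a gene were summed over all cells of a class and divided by all UMIs of that class, in the usual unit CPM, and fold changes and log2 ratios are OTM over Control.

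Macrophages take up dead cells, lipoproteins and matrix fragments and break them down in lysosomes, acid compartments filled with proteases and lipases. Cholesterol and fatty acids released there are bound by carrier proteins, stored as droplets or passed out of the cell on apolipoproteins. In mouse atherosclerosis, obesity and brain disease, Trem2, Gpnmb, Fabp5, Lgals3, Cd63 and Cd9 are known as marker genes of lipid-laden macrophages and activated microglia. In the periodontal ligament, macrophages and their monocyte precursors lie beside osteoclasts, the bone-resorbing cells of the same lineage.

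The OTM library kept 1412 cells with a median of 19583 UMIs, and the Control library kept 348 cells with a median of 14877 UMIs. No cell barcode was shared by both. Cells were clustered with the 9 genes left out, and clusters were named from fixed marker lists that held none of the 9. The macrophage or monocyte-like class had 67 OTM cells (4.75% of the library, 1334967 UMIs, median 17976 per cell) and 33 Control cells (9.48%, 414522 UMIs, median 13822). All 20 markers of its list were detected in both libraries, with a summed level of 13220 CPM in OTM and 21808 CPM in Control. Csf1r, the receptor for the macrophage growth factor, had UMIs in 58 of 67 OTM cells and 29 of 33 Control cells. Adgre1, which encodes the surface antigen F4/80, had UMIs in 44 OTM cells and 24 Control cells.

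The class was made of 4 clusters, and the libraries divided among them unequally. A cluster led by Ctss, Ms4a7 and Fcgr2b held 21 OTM cells and 2 Control cells. A cluster led by F13a1, Ms4a4c and Ccr2, the last a receptor of blood monocytes, held 19 OTM cells and 3 Control cells. A cluster led by Mrc1, Pf4 and Fcrls, genes of resident macrophages, held 15 OTM cells and 16 Control cells, and a cluster led by Ccl4, C1qa and Ccl7 held 12 of each. The first pair therefore held most OTM cells and the other pair most Control cells, so a level of the whole class mixes how many cells of each kind were caught with how much of a gene each cell carried. The 4 clusters came from a resolution chosen after the clusters had been seen. Osteoclast-like cells were a separate class of 25 OTM cells, with 0 found among the 348 of Control. The exact binomial interval of that count reaches 1.05% of the Control library.

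Promoter sequences are shown for the pair of cathepsin genes whose windows held the E-box CACGTG, the core of the site bound by Tfeb and its relatives, the factors that switch on lysosome genes. Windows of 250 bases before to 50 bases after each start were taken from RefSeq (GRCm38.p6). They were listed for 7 of the 9 genes, in 9 windows, and not for Fabp5 and Ctsb. CACGTG reads the same on both strands and was present in 2349 of 32851 windows of all genes (7.15%). The longer form TCACGTGA, which contains the E-box, was in 320 windows (0.974%), and the macrophage factor site GAGGAAGT, searched on both strands, was in 1052 (3.2%) and in none of the 7 genes. No match says only that these letters are not in the window, and a match is not evidence of binding. The E-boxes are in capitals below, 5′ to 3′ on the gene's own strand.

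Ctsd, chr7:142387900-142388077, minus strand: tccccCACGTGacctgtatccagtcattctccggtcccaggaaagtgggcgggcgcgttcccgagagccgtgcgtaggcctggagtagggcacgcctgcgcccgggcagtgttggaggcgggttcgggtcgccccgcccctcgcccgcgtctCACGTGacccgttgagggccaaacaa

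Ctsl, chr13:64370731-64370770, minus strand: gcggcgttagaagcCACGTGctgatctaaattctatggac

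The Ctsd stretch holds 2 E-boxes, 245 and 98 bases before the start, and the nearer one is also the longer form. The Ctsl stretch holds 1, at 236 bases before the start. These distances are from the RefSeq start of each window, position 142387827 for Ctsd and 64370520 for Ctsl. Both starts lie inside the gene as GENCODE M21 draws it, 211 bases from its 5′ end for Ctsd and 370 bases for Ctsl, so the Ctsl stretch and the nearer Ctsd E-box fall within the annotated gene.

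In the macrophage or monocyte-like class, 5 of the 9 genes were at least 2-fold higher in OTM and 0 were at least 2-fold lower. Of the 7084 genes that reached 20 UMIs in 1 library or the other, 21.9% were at least 2-fold higher and 6.32% at least 2-fold lower, and the median log2 ratio was 0.31. The 5 were the lipid carrier Fabp5, the membrane glycoprotein Gpnmb, the galectin Lgals3 and the proteases Ctsd and Ctsl. The genes were taken up because of their levels in these cells, so the count and the values that follow are a description. The OTM class held 1334967 UMIs and the Control class 414522, so 20 UMIs marked a lower level in OTM. Genes higher in OTM therefore qualified more easily, here and in the other counts of this class below. Fabp5 with 17 Control UMIs and Gpnmb with 0 qualified through OTM only.

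**Figure D1:**
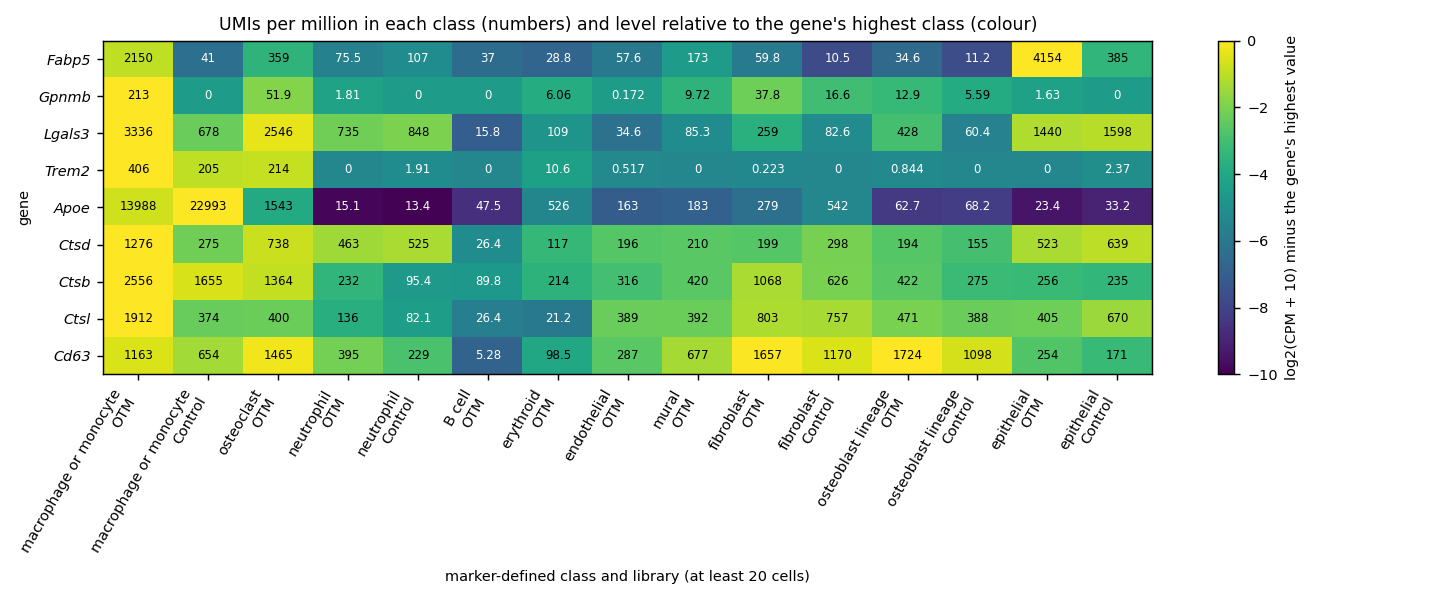
Level of each of the 9 genes in every class with at least 20 cells of a library, in CPM (numbers) and relative to the gene's own highest class (colour, log2 scale). Trem2 and Apoe stand out in macrophage or monocyte-like and osteoclast-like cells, Fabp5 is highest in epithelial-like cells of OTM, and Cd63 is high in fibroblast-like and osteoblast lineage-like cells of both libraries.

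Trem2 is a lipid receptor of the cell surface that signals through the adaptor Tyrobp (chromosome 17, 48346401 to 48354147, plus strand, GRCm38). It had 542 UMIs in the OTM class and 85 in the Control class. That was 406 CPM in OTM and 205 CPM in Control, a log2 ratio of 0.99 (0.65 to 1.33). UMIs were found in 45 of 67 OTM cells and 19 of 33 Control cells. The level of a single cell ran from 0 through a median of 127 to 1826 CPM in OTM, and from 0 through 94.3 to 1226 CPM in Control, so the libraries overlapped over most of their range. Outside this class Trem2 was almost confined to osteoclast-like cells, with 214 CPM in OTM. In fibroblast-like cells it had 3 UMIs of 13439212 in OTM and 0 of 2470333 in Control. With the Ctss/Fcgr2b cluster left out, Trem2 was at 178 CPM in OTM and 212 CPM in Control, a log2 ratio of -0.25 (-0.65 to 0.15).

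Apoe encodes apolipoprotein E, a secreted lipid carrier and a ligand of Trem2 (chromosome 7, 19696109 to 19699188, minus strand). It was the only one of the 9 with a lower level in OTM, at 13988 CPM (18674 UMIs) against 22993 CPM (9531 UMIs) in Control, a log2 ratio of -0.72 (-0.75 to -0.68). Single cells ran from 0 through a median of 4333 to 90351 CPM in OTM, and from 0 through a median of 27988 to 66922 CPM in Control. UMIs were found in 49 of 67 OTM cells and 30 of 33 Control cells. Cells without Apoe were therefore commoner in OTM, while the cells with the most Apoe were in OTM as well.

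Apoe levels differed between the clusters. The OTM cells of the Ctss/Fcgr2b cluster had 16420 CPM and those of the F13a1/Ccr2 cluster 1785 CPM. In the Mrc1/Pf4 cluster Apoe was at 29019 CPM in OTM and 32172 CPM in Control, a log2 ratio of -0.15 (-0.21 to -0.08). In the Ccl4/Ccl7 cluster it was at 22017 CPM in OTM and 21794 CPM in Control, a log2 ratio of 0.01 (-0.04 to 0.07). In both clusters that held 12 or more cells of each library, the log2 ratio of the sums was thus nearer to 0 than in the class total. Single cells of the Mrc1/Pf4 cluster differed more than its sums, with a median of 5949 CPM in OTM and 30090 CPM in Control. Without the Ctss/Fcgr2b cluster the log2 ratio of the class was -0.96, further from 0.

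**Figure D2:**
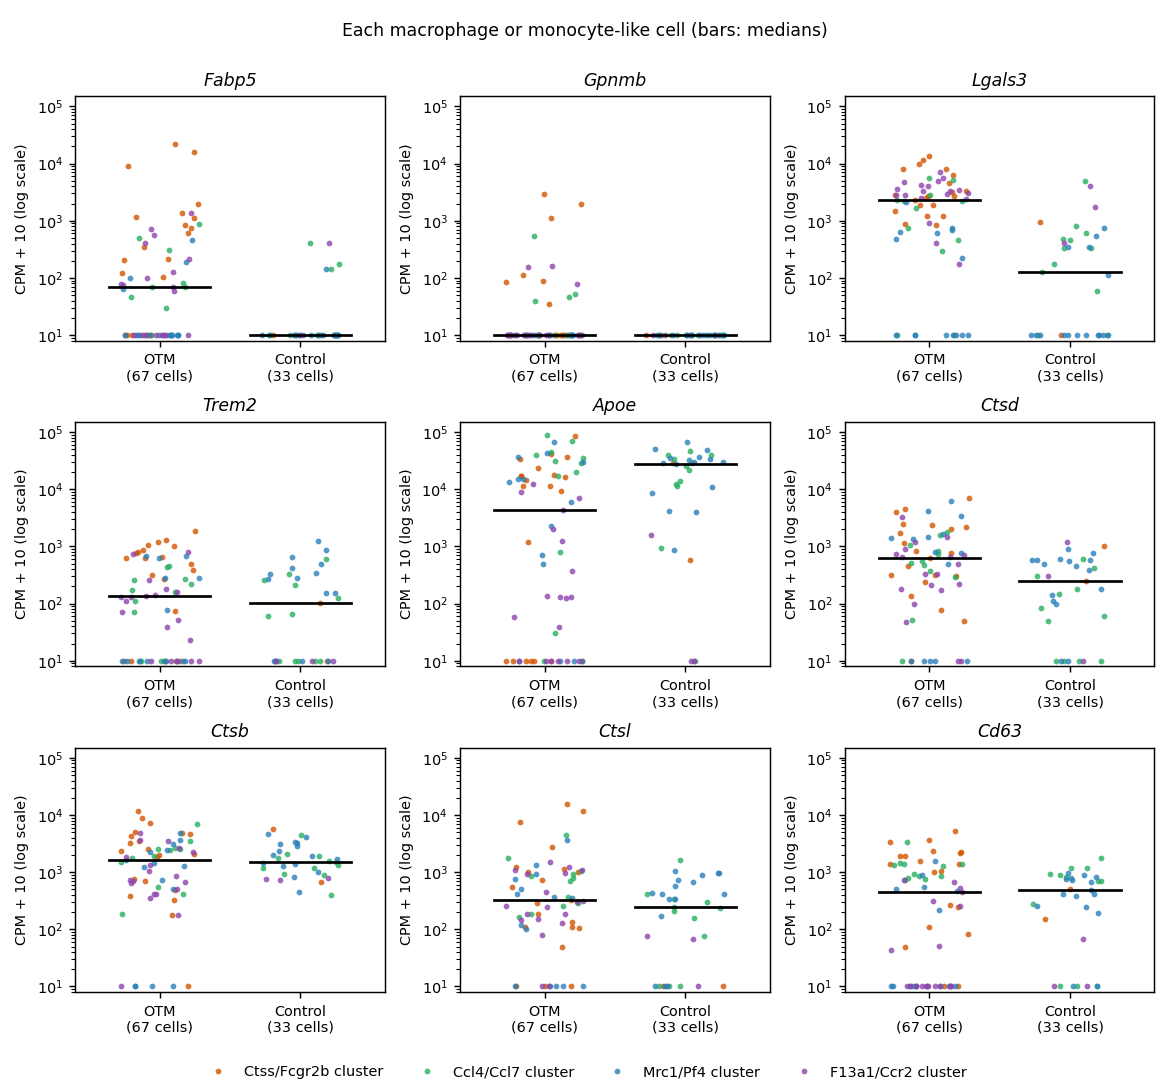
Level of each gene in every macrophage or monocyte-like cell, as CPM plus 10 on a log scale, with the 67 OTM cells left and the 33 Control cells right of each panel and bars at the medians. Cells at the bottom had no UMI of the gene. The highest Fabp5, Gpnmb and Ctsl values belong to a few OTM cells of the Ctss/Fcgr2b cluster, and the Control cells run from 0 to 66922 CPM for Apoe around a median of 27988 CPM.

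Fabp5 binds fatty acids inside the cell and carries them to membranes and nuclear receptors (chromosome 3, 10012548 to 10016607, plus strand). It had 2870 UMIs in the OTM class and 17 in the Control class. That was 2150 CPM in OTM and 41.0 CPM in Control, a log2 ratio of 5.71 (5.03 to 6.49). UMIs were found in 38 of 67 OTM cells and 5 of 33 Control cells. The median cell had 58.6 CPM in OTM and 0 CPM in Control, and the highest had 21902 CPM in OTM and 398 CPM in Control. Close paralogs and pseudogene copies of Fabp5 exist, and how reads shared with them were counted was not given in the sources used here.

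A single OTM cell of the Ctss/Fcgr2b cluster held 1691 of the 2870 Fabp5 UMIs (58.9%). It had 77206 UMIs in all, with 15 of 20 macrophage markers detected at a sum of 23677 CPM. It had 7 of 13 osteoclast markers at 4002 CPM, where osteoclast-like cells had 40124 CPM, and 0 of 10 epithelial markers. Its highest list was that of the osteoblast lineage, with 3 of 11 markers detected at 56705 CPM (4378 UMIs). Nearly all of that was Spp1, which macrophages also make, as in the OTM cells of its whole cluster. The part of RNA from other cell types in its values was not tested. The doublet caller did not mark it. That cell also held 1184 of 2553 Ctsl UMIs (46.4%) and 544 of 1703 Ctsd UMIs (31.9%). Without it and the Control cell with the most UMIs of these genes, Fabp5 was at 937 CPM in OTM and 43.4 CPM in Control, 21.6-fold higher against 52.4-fold with them, and Ctsl was 3.07-fold higher against 5.11-fold. The same 5 genes stayed at least 2-fold higher, beside 22.7% of all genes, and 0 were at least 2-fold lower, beside 5.82%.

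Fabp5 was not particular to macrophages. In OTM its highest class was epithelial-like cells, with 4154 CPM against 385 CPM in Control epithelial-like cells, a log2 ratio of 3.43. Macrophage or monocyte-like cells came next, then osteoclast-like cells with 359 CPM, which differed from each other beyond counting error. Epithelial markers were nearly absent from the macrophage or monocyte-like class, with 6 of 10 detected at a sum of 24.0 CPM in OTM and 4 of 10 at 19.3 CPM in Control, and with Krt15, Trp63 and Amtn at 0 in both. Erythroid-like cells were set beside these to look for free RNA. They were not empty in OTM, where Apoe had 347 UMIs in 3 of 28 cells (526 CPM), Lgals3 was at 109 CPM, Cd63 at 98.5 CPM with all its UMIs in 1 cell, and Fabp5 had 19 UMIs in 5 cells, and 1 cell carried 8 of the 9 genes. Control erythroid-like cells had 0 UMIs of these 4 genes in 12 cells. After each cell was thinned to 2000 UMIs, 0 of 25 OTM erythroid-like cells had Fabp5, against 17 of 63 OTM macrophage or monocyte-like cells and 0 of 29 Control ones. Before thinning the median depth was 15012 UMIs in OTM erythroid-like cells, near the 17976 of the OTM macrophage or monocyte-like cells. Globin genes led the erythroid-like cluster, and Fabp5 was at only 28.8 CPM in its OTM cells before thinning. Few of them could keep Fabp5 at 2000 UMIs, so the 0 of 25 does not measure free RNA.

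Gpnmb is a glycoprotein of lysosomes and the cell surface that is made by macrophages after phagocytosis and by osteoclasts (chromosome 6, 49036546 to 49070929, plus strand). It had 285 UMIs in the OTM class, or 213 CPM, and 0 in the Control class, where 3 UMIs would be 7.24 CPM. On that floor, taken over the whole group, it was at least 29.5-fold higher in OTM. Only 14 of 67 OTM cells had it, and 2 of them held most of its UMIs, with 126 in the highest. Gpnmb was also found in osteoclast-like cells at 51.9 CPM in OTM, and in fibroblast-like cells at 37.8 CPM in OTM and 16.6 CPM in Control.

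The 14 OTM cells with Gpnmb were spread over clusters, 7 in the Ctss/Fcgr2b cluster, 4 in the Ccl4/Ccl7 cluster and 3 in the F13a1/Ccr2 cluster. They were deeper than the other 53, with a median of 26563 UMIs against 16505 in cells without it. Their summed levels were above those of the cells without Gpnmb for every other gene of the 9. Fabp5 was at 6426 CPM in cells with Gpnmb and 238 CPM in cells without, Ctsl at 5151 CPM with and 465 CPM without, Ctsd at 2626 CPM with and 672 CPM without, and Trem2 at 766 CPM with and 245 CPM without. The smallest step was that of Apoe, at 16972 CPM in cells with Gpnmb and 12655 CPM in cells without. These sums include the single cell described above.

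Lgals3 encodes galectin-3, a sugar-binding protein that is secreted and also gathers on damaged lysosomes (chromosome 14, 47367751 to 47386160, plus strand). It had 4454 UMIs in the OTM class and 281 in the Control class. That was 3336 CPM in OTM and 678 CPM in Control, a log2 ratio of 2.30 (2.12 to 2.48). UMIs were found in 57 of 67 OTM cells and 19 of 33 Control cells, and the median cell had 2254 CPM in OTM and 117 CPM in Control. Unlike Fabp5, Lgals3 was spread over many cells: 9 OTM cells were needed to reach a majority of its UMIs, and the highest held 14.0%. All 21 OTM cells of the Ctss/Fcgr2b cluster and all 19 of the F13a1/Ccr2 cluster had it. In the Ccl4/Ccl7 cluster it was at 2221 CPM in OTM and 674 CPM in Control, 3.29-fold higher (2.73 to 4.01). In the Mrc1/Pf4 cluster it was at 262 CPM in OTM and 218 CPM in Control, a log2 ratio of 0.26 (-0.50 to 1.02) whose interval includes 0.

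Ctsd encodes cathepsin D, an aspartic protease of lysosomes (chromosome 7, 142375911 to 142388038, minus strand). It had 1703 UMIs in the OTM class and 114 in the Control class. That was 1276 CPM in OTM and 275 CPM in Control, a log2 ratio of 2.21 (1.94 to 2.50). UMIs were found in 58 of 67 OTM cells and 26 of 33 Control cells, and the median cell had 617 CPM in OTM and 236 CPM in Control. Ctsd was also higher in OTM inside each cluster that both libraries shared. In the Mrc1/Pf4 cluster it was at 1715 CPM in OTM and 423 CPM in Control, 4.05-fold higher (3.06 to 5.43), and the mean over cells was 1436 ± 1800 CPM in OTM and 395 ± 280 CPM in Control (SD over 15 and 16 cells, which are not replicates). In the Ccl4/Ccl7 cluster it was at 543 CPM in OTM and 158 CPM in Control, 3.43-fold higher (2.32 to 5.22). The shares of thinned cells with Ctsd in the Mrc1/Pf4 cluster were 8 of 12 in OTM and 9 of 14 in Control, so the level differed where the share of cells hardly did.

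Ctsl encodes cathepsin L, a cysteine protease of lysosomes (chromosome 13, 64359337 to 64370890, minus strand). It had 2553 UMIs in the OTM class and 155 in the Control class. That was 1912 CPM in OTM and 374 CPM in Control, a log2 ratio of 2.35 (2.12 to 2.60). The median cell had 316 CPM in OTM and 234 CPM in Control, a far smaller step than that of the sums, and 2 OTM cells held most of the UMIs. In the Ccl4/Ccl7 cluster Ctsl was at 781 CPM in OTM and 337 CPM in Control, 2.32-fold higher (1.75 to 3.10). In the Mrc1/Pf4 cluster it was at 487 CPM in OTM and 542 CPM in Control, a log2 ratio of -0.15 (-0.67 to 0.35).

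Ctsb encodes cathepsin B, the other cysteine protease of the set (chromosome 14, 63122462 to 63145923, plus strand). It had 3412 UMIs in the OTM class and 686 in the Control class. That was 2556 CPM in OTM and 1655 CPM in Control, a log2 ratio of 0.63 (0.51 to 0.75). It was detected in the most cells of the 9, with UMIs in 61 of 67 OTM cells and all 33 Control cells and medians of 1642 CPM in OTM and 1521 CPM in Control. Its share of thinned cells was 51 of 63 in OTM and 25 of 29 in Control. The share in erythroid-like cells was 8 of 25 in OTM and 6 of 12 in Control, the highest such background of the 9. Without the Ctss/Fcgr2b cluster Ctsb was at 1650 CPM in OTM and 1689 CPM in Control, a log2 ratio of -0.03 (-0.17 to 0.10).

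Cd63 encodes a tetraspanin of late endosomes, lysosomes and exosomes (chromosome 10, 128900989 to 128912822, plus strand). It had 1553 UMIs in the OTM class and 271 in the Control class. That was 1163 CPM in OTM and 654 CPM in Control, a log2 ratio of 0.83 (0.64 to 1.02). The median cell had 445 CPM in OTM and 468 CPM in Control, so the medians did not share the direction of the sums. Cd63 was not highest in macrophages in this tissue. Its highest class in OTM was osteoblast lineage-like cells at 1724 CPM, then fibroblast-like cells at 1657 CPM and osteoclast-like cells at 1465 CPM. In Control it was at 1170 CPM in fibroblast-like and 1098 CPM in osteoblast lineage-like cells, which did not differ beyond counting error.

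The class total of most of the 9 genes came from the Ctss/Fcgr2b cluster, which held 21 of 67 OTM cells. It carried 93.9% of the OTM Fabp5 UMIs, 93.7% of Gpnmb, 82.3% of Ctsl, 73.4% of Trem2, 68.4% of Cd63, 67.6% of Ctsd, 60.8% of Ctsb, 56.5% of Lgals3 and 46.1% of Apoe. Only 2 Control cells fell in this cluster, so no comparison between libraries was made inside it. In its 21 OTM cells osteoclast markers summed to 1696 CPM, osteoblast lineage markers to 14825 CPM and dendritic cell markers to 15284 CPM, and whether these cells took part in the result was not tested. Nearly all of the osteoblast lineage sum was Spp1, which macrophages also make and which alone was at 14718 CPM. Sp7, Alpl, Dmp1 and Ifitm5 of that list were at 0. Left without this cluster, the class had 46 OTM and 31 Control cells, and 3 genes (Fabp5, Lgals3 and Ctsd) were at least 2-fold higher in OTM and 0 at least 2-fold lower, beside 21.8% and 6.45% of all genes.

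**Figure D3:**
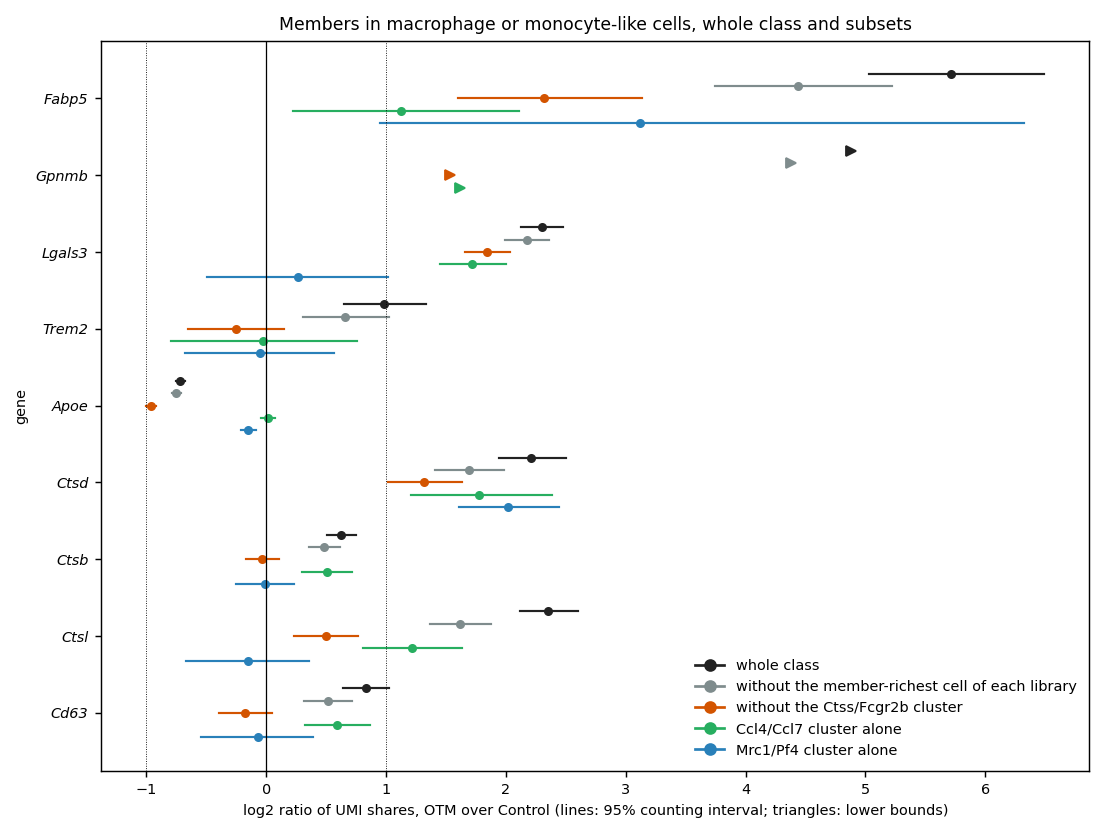
Log2 ratio, OTM over Control, of each gene in the whole macrophage or monocyte-like class, in the class without the cell of each library richest in these genes, in the class without the Ctss/Fcgr2b cluster, and inside the Ccl4/Ccl7 and Mrc1/Pf4 clusters. Lines are 95% counting intervals, triangles are lower bounds against 0 Control UMIs, and dotted lines mark a 2-fold difference. Ctsd stays to the right of 1 in all 5, while Trem2 and Ctsb sit near 0 in the Mrc1/Pf4 cluster.

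Inside the Mrc1/Pf4 cluster, 1 of the 7 genes with at least 20 UMIs was at least 2-fold higher in OTM, Ctsd, beside 7.91% of 1454 genes, and 0 were at least 2-fold lower, beside 8.80%. Fabp5 had 12 UMIs in OTM and 2 in Control there, a ratio of 8.70 (1.94 to 80.0), under the minimum for that count. OTM cells of this cluster were shallower, with a median of 3100 UMIs against 11747 in Control. Inside the Ccl4/Ccl7 cluster, 4 of 8 genes were at least 2-fold higher, beside 21.7% of 2377 genes, and 0 at least 2-fold lower, beside 8.88%. They were Fabp5 with 43 UMIs in OTM and 14 in Control, Lgals3, Ctsd and Ctsl. Gpnmb had 13 UMIs in OTM and 0 in Control, at least 3.07-fold higher on the floor of 3 UMIs over the group. In the OTM cells of this cluster fibroblast markers summed to 9828 CPM, against 204 CPM in Control, with all 12 detected in OTM and 8 in Control, and their part in these values was not tested. In OTM, fibroblast-like cells had Cd63 at 1657 CPM, Ctsl at 803 CPM, Lgals3 at 259 CPM, Ctsd at 199 CPM and Fabp5 at 59.8 CPM.

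The 9 genes were then counted cell by cell. After thinning to 2000 UMIs, which left out 4 shallower cells in each library, 32 of 63 OTM cells had at least 5 of the 9 genes (50.8%, exact binomial interval 37.9 to 63.6%), and so had 13 of 29 Control cells (44.8%, 26.4 to 64.3%). At full depth the shares were 80.6% in OTM and 72.7% in Control. The shares overlapped, but the counts differed in spread. At 2000 UMIs all 9 genes were found in 3 OTM cells, 8 genes in 4 and 7 genes in 7, whereas no Control cell passed 6. No Control cell had Fabp5 or Gpnmb at that depth, so none could have passed 7. At the low end of the thinned counts, 6 OTM cells and 1 Control cell had a single gene. At full depth 9 OTM cells had all 9 genes, and the highest Control cell had 8.

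**Figure D4:**
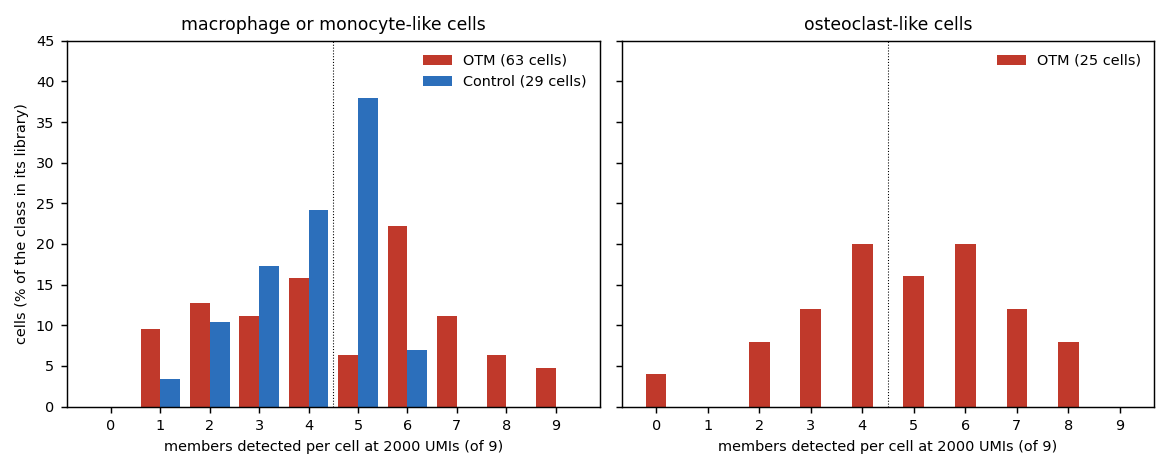
Share of cells by the number of the 9 genes detected after thinning to 2000 UMIs, in macrophage or monocyte-like cells (63 OTM, 29 Control) and in osteoclast-like cells (25, OTM only). The dotted line marks 5 genes. OTM macrophage or monocyte-like cells range from 1 to 9 genes, and Control cells from 1 to 6 with a peak at 5.

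A count of 5 or more was not particular to macrophages. It was reached by 14 of 25 osteoclast-like cells in OTM (56.0%), by 23.6% of fibroblast-like cells in OTM and 14.5% in Control, and by 25.0% of epithelial-like cells in OTM and 5.26% in Control. It was reached by 7 of 158 neutrophil-like cells in OTM and 0 of 37 in Control, where the exact binomial interval reaches 9.49%. In erythroid-like cells it was 0 of 25 in OTM and 0 of 12 in Control. Over all 9 genes, the OTM cells of the Ctss/Fcgr2b cluster averaged 5.5 genes at 2000 UMIs, those of the Ccl4/Ccl7 cluster 5.1, the F13a1/Ccr2 cluster 4.0 and the Mrc1/Pf4 cluster 3.8, while Control averaged 4.2 in both the Ccl4/Ccl7 and the Mrc1/Pf4 cluster.

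Pairs of genes behaved unequally across cells. Over the 63 thinned OTM cells, Pearson's r of log2 values had a median of 0.40 over the 36 pairs, from -0.15 for Lgals3 with Apoe to 0.71 for Fabp5 with Gpnmb. Gpnmb with Ctsl reached 0.70, Apoe with Ctsb 0.66 and Apoe with Cd63 0.63. The Gpnmb values rest on 5 cells with a Gpnmb UMI at that depth. Over the 29 Control cells, 21 pairs could be computed, since no cell had Fabp5 or Gpnmb, and their median was 0.05, with Apoe and Ctsb highest at 0.57. All these cells come from 1 library per group, and depth was equal by construction. Trem2 was found in 27 of 63 OTM cells and 6 of 29 Control cells, and Apoe was present in 23 of the 27 and 5 of the 6. Of the cells without Trem2, 47.2% had Apoe in OTM and 91.3% in Control, so in Control Apoe was no more common in cells with Trem2.

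Most other lysosome genes differed by less than 2-fold. Of 41 eligible genes for lysosomal proteases, glycosidases, lipid enzymes, membrane proteins and the proton pump, 3 were at least 2-fold higher in OTM and 0 at least 2-fold lower, with a median log2 ratio of 0.31, the same as that of all genes, of which 21.9% were at least 2-fold higher and 6.32% at least 2-fold lower. Among proteases, Ctss, a protease of antigen-presenting cells, was at 2118 CPM in OTM and 1416 CPM in Control, and Ctsz at 1174 CPM in OTM and 712 CPM in Control, log2 ratios of 0.58 and 0.72. Psap, the precursor of activators of lipid-degrading enzymes, was at 1565 CPM in OTM and 1124 CPM in Control, and Npc2, a cholesterol carrier of the lysosome, at 877 CPM in OTM and 651 CPM in Control. Lamp1, a major membrane protein of lysosomes, was at 724 CPM in OTM and 671 CPM in Control. The 3 higher genes were the glycosidase Gaa with 35 UMIs in OTM and 5 in Control, whose log2 interval of -0.24 to 2.83 includes 0, and the proton pump subunits Atp6v1b2 with 222 UMIs in OTM and 32 in Control and Atp6v0d2 with 211 in OTM and 1 in Control. Atp6v0d2, which marks osteoclasts and macrophage subsets, had a ratio of 65.5 and a log2 interval of 3.54 to 11.3. Gaa and Atp6v0d2 reached 20 UMIs in OTM only.

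Of 3 factors that act on lysosome genes, the counts resolved a difference for Tfe3. It was at 28.5 CPM in OTM and 65.1 CPM in Control, a log2 ratio of -1.19 (-1.94 to -0.43), the 1 of 3 that was at least 2-fold lower. Mitf was at 271 CPM in OTM and 326 CPM in Control, a log2 ratio of -0.26 (-0.55 to 0.03), and Tfeb had 37 UMIs in OTM and 8 in Control, a log2 ratio of 0.52 (-0.60 to 1.84), so both intervals include 0. Of the inhibitors of cysteine cathepsins, Cstb, a cystatin of the cytosol, was at 1079 CPM in OTM and 381 CPM in Control, a log2 ratio of 1.5 (1.26 to 1.75), and Cst3, a secreted cystatin, had 2115 CPM in OTM and 3006 CPM in Control, or -0.51 on the log2 scale (-0.60 to -0.41).

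**Figure D5:**
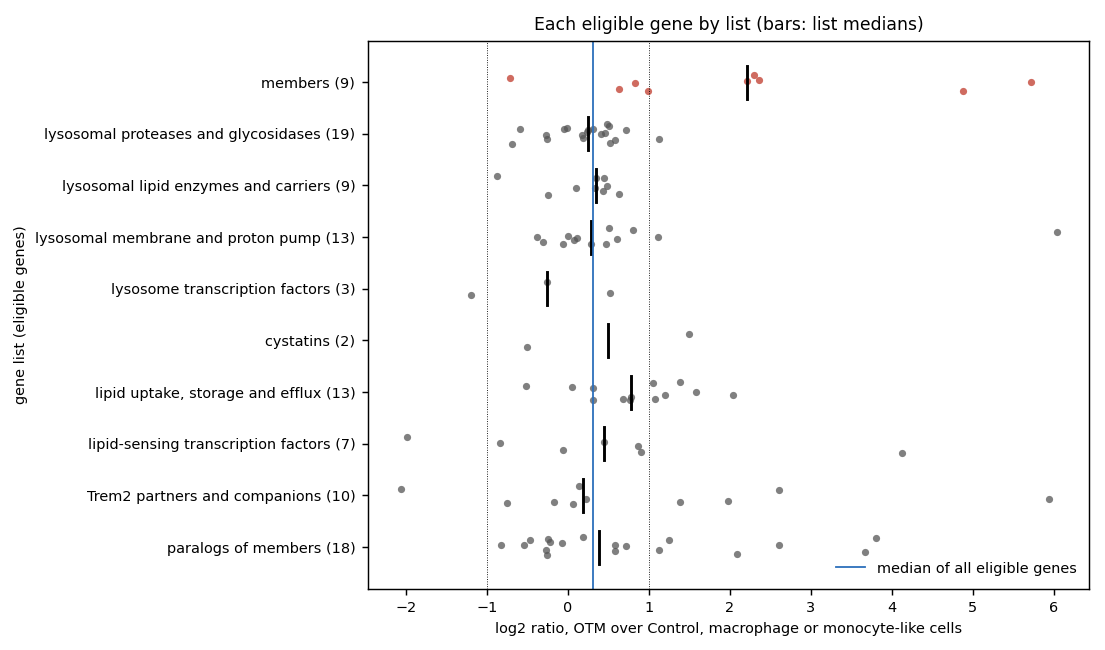
Log2 ratio, OTM over Control, in macrophage or monocyte-like cells for each eligible gene of the 9 genes and of the other lists, with the number of eligible genes in brackets, bars at list medians and a line at the median of all genes (0.31). The 3 lysosome lists lie around that line, with Atp6v0d2 apart at 6.03.

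Genes of lipid handling and Trem2 partners were counted together. Of 29 eligible genes for lipid uptake, storage, efflux, lipid-sensing factors and Trem2 partners, 10 were at least 2-fold higher in OTM and 2 at least 2-fold lower, with a median log2 ratio of 0.69, beside 21.9%, 6.32% and 0.31 over all genes. Plin2, which coats lipid droplets, was at 366 CPM in OTM and 212 CPM in Control, a log2 ratio of 0.78 (0.45 to 1.13). The cholesterol exporter Abca1 was at 328 CPM in OTM and 470 CPM in Control, a log2 ratio of -0.52 (-0.77 to -0.27), and the exporter Abcg1 had 66 UMIs in OTM and 5 in Control, a log2 ratio of 2.04 (0.74 to 3.70). Scarb1, a receptor for lipoproteins, had 29 UMIs in OTM and 3 in Control, a ratio of 3.0 whose log2 interval of -0.10 to 3.94 includes 0. Of the lipid-sensing factors, Nr1h3, a sterol-bound nuclear receptor, had 56 UMIs in OTM and 1 in Control, a log2 interval of 1.58 to 9.45, and Pparg had 22 in OTM and 27 in Control, a log2 ratio of -1.98 (-2.86 to -1.12).

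Tyrobp, the adaptor of Trem2, differed little, at 1840 CPM in OTM and 1667 CPM in Control, a log2 ratio of 0.14 (0.02 to 0.27). Of the 10 eligible Trem2 partners and companions, 4 were at least 2-fold higher and 1 at least 2-fold lower. Over all genes the shares were 21.9% and 6.32%. Inside the Ccl4/Ccl7 cluster 1 of 6 was higher and 2 lower, and inside the Mrc1/Pf4 cluster 0 of 2 either way. Spp1, which encodes the secreted phosphoprotein osteopontin, stood at 6805 CPM in OTM and 111 CPM in Control, a log2 ratio of 5.94 (5.52 to 6.39). Of its 9085 OTM UMIs, 7724 were in the Ctss/Fcgr2b cluster. In the Ccl4/Ccl7 cluster Spp1 was at 188 CPM in OTM and 174 CPM in Control. In the Mrc1/Pf4 cluster it was at 36.1 CPM in OTM and 68.5 CPM in Control. The single cell described for Fabp5 had 4378 UMIs of the osteoblast lineage list, nearly all of them Spp1. It thus held a large part of the 9085. The Spp1 level without that cell was not computed. Cd9, a tetraspanin, was at 882 CPM in OTM and 145 CPM in Control, a log2 ratio of 2.61 (2.23 to 3.01). The others, named after their values were seen, were Itgax with 114 UMIs in OTM and 9 in Control, Lpl with 67 in OTM and 8 in Control, and the lower gene Axl, a receptor for dying cells, with 67 in OTM and 87 in Control. Spp1 is also made by osteoblasts and osteoclasts.

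Relatives of the 9 genes were set beside them because reads can be shared between similar genes. Of 18 eligible relatives 6 were at least 2-fold higher and 0 at least 2-fold lower, beside 21.9% and 6.32% of all genes. Fabp4, the adipocyte and macrophage counterpart of Fabp5, had 90 UMIs in OTM and 2 in Control, a ratio of 14.0 with a log2 interval of 1.91 to 6.87. Lgals1, another galectin, was at 1314 CPM in OTM and 309 CPM in Control, a log2 ratio of 2.09. Ctsk, the collagen-degrading cathepsin of osteoclasts, had 205 UMIs in OTM and 5 in Control, a log2 ratio of 3.67 (2.42 to 5.31). Osteoclast markers as a list summed to 1196 CPM in the OTM class, 12 of 13 detected and Calcr at 0, and to 712 CPM in the Control class, 10 of 13 detected and Calcr, Itgb3 and Car2 at 0. Their part in the values of the 9 genes was not tested.

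In other classes the 9 genes differed in other ways. In fibroblast-like cells 3 of 8 eligible genes were at least 2-fold higher in OTM, beside 6.17% of all genes, and 0 at least 2-fold lower, beside 7.08%. They were Fabp5 with 804 UMIs in OTM and 26 in Control, Gpnmb with 508 in OTM and 41 in Control, and Lgals3 with 3486 in OTM and 204 in Control. In osteoblast lineage-like cells the same 3 of 8 were at least 2-fold higher, beside 8.75%, and 0 at least 2-fold lower, beside 2.39%. Gpnmb had 46 UMIs in OTM and 5 in Control there, with a log2 interval of -0.11 to 2.90 that includes 0. In epithelial-like cells 1 of 7 was at least 2-fold higher, Fabp5, beside 5.90%, and 0 at least 2-fold lower, beside 11.6%. In neutrophil-like cells 1 of 7 was at least 2-fold higher, Ctsb, beside 17.4%, and 0 at least 2-fold lower, beside 1.37%. Apoe was lower in OTM in fibroblast-like cells, at 279 CPM against 542 CPM in Control. The libraries divided unequally among fibroblast-like clusters. One led by Mmp13 and Ccn5 held 140 OTM and 0 Control cells, and one led by Pcp4 and Wif1 held 107 and 90. The fibroblast-like ratios of Fabp5, Gpnmb, Lgals3 and Apoe therefore mix kinds of cells with levels per cell. Endothelial-like Apoe was at 163 CPM in OTM and 525 CPM in Control, where 14 Control cells fell under the minimum of 20 used for classes. Neutrophil-like Ctsb was at 232 CPM in OTM and 95.4 CPM in Control, a log2 ratio of 1.28, and Lgals3 at 735 CPM in OTM and 848 CPM in Control. Osteoclast-like cells, in OTM only, carried all 9 genes, with Lgals3 at 2546 CPM, Apoe at 1543 CPM, Ctsb at 1364 CPM and Ctsd at 738 CPM.

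The order of classes differed by gene. By summed CPM in OTM, the macrophage or monocyte-like class was the highest for 7 of the 9, all but Fabp5 and Cd63, among classes with at least 20 cells. By the mean over cells it was the highest for 6, since Lgals3 averaged 2943 CPM in osteoclast-like cells and 2722 CPM in macrophage or monocyte-like cells. In Control it was the highest for 3 by either measure, Trem2, Apoe and Ctsb. Control Ctsd was at 639 CPM in epithelial-like cells and 525 CPM in neutrophil-like cells, above the 275 CPM of macrophage or monocyte-like cells, which did not differ beyond counting error from the 298 CPM of fibroblast-like cells. Control Ctsl was highest in fibroblast-like cells at 757 CPM.

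Likeness was measured over 15 sums of class and library with at least 20 cells, as Pearson's r of log2(CPM + 10) with each of 16883 genes. Trem2 was most like Msr1, the macrophage scavenger receptor A, at 0.99. The mean of the 9 genes was most like Dnajb14 at 0.91, Tep1 at 0.89 and Tmem219 at 0.89. The closest genes to single members were Rnf180 for Apoe (0.94), Vat1 for Ctsl (0.95), Gfpt1 for Cd63 (0.93), Srxn1 for Ctsb (0.92), Frrs1 for Lgals3 (0.92), Znhit1 for Ctsd (0.90), Esd for Fabp5 (0.89) and Zfp455 for Gpnmb (0.89). Zfp455 had only 25 UMIs over the 15 sums, so its match rests on few counts. Each of these genes was picked as the highest of many over 15 sums. The sums share libraries, and classes of 1 library share its depth. Of the 9 themselves, Ctsb followed the mean most closely at 0.89 and Fabp5 least at 0.57. Each of the 9 is part of that mean, which raises its r, so these values are not comparable with those of other genes.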

How the data were processed

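The deposited values were whole-number UMI counts per gene and cell barcode, without normalization, made by the authors with Cell Ranger (version 7.0.1, as the file headers and the submitters' processing notes record). Those notes also name mm10, GRCm38 and Seurat, and the authors' filters on cells are not given in the sources used here. Barcodes with 200 or more genes and no more than 20% of counts from mitochondrial genes were kept: 1412 of 1539 barcodes in OTM and 348 of 369 in Control. The OTM library held 35518568 UMIs after this filter and the Control library 5593726.

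Cells were scaled to 10000, log-transformed and clustered with scanpy 1.11.5 (2000 variable genes, 30 components, 15 neighbours, Leiden resolution 1.0, seed 0), without the 9 genes. Macrophage, osteoclast and dendritic clusters were clustered again (1500 genes, 10 components, 10 neighbours, resolution 1.5). A cluster took the class with the highest mean centred marker level, if at least 0.3 with at least 3 markers detected. Markers came from 21 lists. Scrublet called 8 OTM and 2 Control cells doublets, and they were kept.

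UMIs were summed per class and library. Poisson, exact binomial and conditional binomial intervals at 95% cover counting error. A class with 0 UMIs was set to 3 for a bound. The calculation of ratios and intervals was checked on simulated counts; the groups themselves were not tested. Named genes were the 9, and from each other list the 2 with most UMIs and the 2 with the largest ratio. Members and lists were chosen with earlier results of these data known. Of 32285 identifiers, 32235 were found in GENCODE M21.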

Additional observations from a re-analysis of the deposited data

Results flagged for a closer look

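Some of the 9 genes had ratios in other classes opposite in sign to those in macrophage or monocyte-like cells, and these differences between classes were not tested. The log2 ratio, OTM over Control, was -0.50 for Fabp5 and -0.20 for Lgals3 in neutrophil-like cells. In epithelial-like cells it was -0.15 for Lgals3, -0.29 for Ctsd and -0.72 for Ctsl, and in fibroblast-like cells it was -0.58 for Ctsd. In the macrophage or monocyte-like class the same genes had 5.71 (Fabp5), 2.30 (Lgals3), 2.21 (Ctsd) and 2.35 (Ctsl).

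The barcodes removed by the filter, which enter no value above, also carried the 9 genes. Summed, they had 1039 UMIs of 492233 in 127 OTM barcodes and 29 of 129573 in 21 Control barcodes, a log2 ratio of 3.24 (2.71 to 3.82). Ctsb had 258 UMIs in OTM and 2 in Control there, Ctsd 227 in OTM and 14 in Control, and Trem2 3 in OTM and 0 in Control.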

How the results depend on the processing

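No paired analysis was possible because each group is 1 pooled library, and no replicate could be left out. Of the 9 genes, 5 were at least 2-fold higher as reported; the count was 8 with doublets removed before clustering (beside 18.5% of all genes) and at clustering resolution 2.0 (19.6%), 1 inside the Mrc1/Pf4 cluster (7.91%), and 3 without the Ctss/Fcgr2b cluster (21.8%) and with the myeloid resolution at 0.8 (20.6%). The count at least 2-fold lower was 1 instead of 0 at resolution 0.8 (beside 5.83%), with scaling by the median ratio of all genes (a shift of 0.31; 11.9%) and with osteoclast-like cells added (11.4%). The settings at 0.8, without that cluster or the cell richest in these genes, and with osteoclast-like cells were chosen after seeing the data.

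The sign of the log2 ratio changed in these cases, judged on the value alone. For the values inside the Mrc1/Pf4 and Ccl4/Ccl7 clusters and without the Ctss/Fcgr2b cluster, every counting interval spanned both signs. An opposite difference was therefore not resolved there, and intervals at the other settings are not given. Cd63 had -0.40 without a cell filter, -0.071 in the Mrc1/Pf4 cluster, -0.24 at 0.8 and -0.17 without the Ctss/Fcgr2b cluster. Trem2 had -0.049 in the Mrc1/Pf4 cluster, -0.028 in the Ccl4/Ccl7 cluster, -0.33 at 0.8 and -0.25 without the Ctss/Fcgr2b cluster. Ctsb had -0.0064 in the Mrc1/Pf4 cluster, -0.071 at 0.8 and -0.034 without the Ctss/Fcgr2b cluster, Ctsl -0.15 in the Mrc1/Pf4 cluster and Apoe 0.015 in the Ccl4/Ccl7 cluster. Fabp5 (1.12 to 5.89), Lgals3 (0.26 to 2.87), Ctsd (1.14 to 2.38) and Gpnmb, where eligible, stayed higher in every setting run.

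The share with at least 5 genes was 70.4% in OTM where single cells were classed by their own scores. In Control it was 26.1% without a cell filter, 17.6% with doublets removed and 17.2% at 0.8. At 5000 UMIs it was 71.9% in OTM and 72.0% in Control, at 1000 UMIs 30.3% and 6.45%, and with at least 2 UMIs required 31.7% and 0%. Lysosome genes at least 2-fold higher, 3 as reported, were 1 without a cell filter, at 0.8 and with scaling by the median, 5 with doublets removed and at resolution 2.0, and 11 with osteoclast-like cells. Those lower, 0 as reported, were 2 with doublets removed and with scaling by the median, and 1 without a cell filter, with libraries clustered alone, with no filter on low counts, at 0.8, without the Ctss/Fcgr2b cluster, without the richest cell and with osteoclast-like cells. Lipid genes lower, 2 as reported, were 1 at resolution 2.0, 4 with scaling by the median and 5 with osteoclast-like cells. The cause was not tested. With 33 Control cells, a gene under 3 UMIs (7.24 CPM) could not be told from 0.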
